A study of Rattus norvegicus with 23 samples.

Results

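The S100 proteins and the annexins are families of calcium-binding proteins, and 10 of their genes were followed here in the CA3 field of the rat hippocampus: S100a4, S100a6, S100a10, S100a11, Anxa1, Anxa2, Anxa3, Anxa5, Anxa6 and Anxa7. They were chosen by gene symbol on the array, with earlier results of these data known, and 15 of the 31042 probe sets that are not controls carried these symbols, which are 10 of the 14217 genes named. Expression was measured in 3 groups of male Long-Evans rats, an outbred strain, with 1 Affymetrix Rat Genome 230 2.0 array per animal and the animals labelled as biological replicates. Aged impaired rats (n = 8) and aged unimpaired rats (n = 6) were 24 to 26 months old and were told apart by a water maze learning index, in which impaired animals scored worse than the young; young rats (n = 9) were 6 months old. No animal received a treatment, and impairment is a division of the aged animals by behaviour. Values are log2 expression as deposited, so a difference of 1 is a doubling. Array medians were 3.39 to 3.46, and each array correlated with the rest at 0.9959 to 0.9974 on average.

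S100 proteins are small dimers that bind calcium through EF hands and then attach to target proteins, while annexins are larger proteins that bind calcium and acidic phospholipids and so move to membranes. The families work together: S100a10 binds the N-terminal tail of annexin A2, and S100a11 that of annexin A1. In brain, S100b is a classical product of astrocytes, and annexin A3 has been found in microglia of the rat.

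The tissue is bulk CA3, and in bulk tissue more cells of a type and more RNA per cell cannot be told apart. All 6 CA3 neuron markers and all 5 oligodendrocyte markers on the array averaged above a log2 value of 4 over the 23 arrays. The CA1 list did so too (4 of 4), and the microglia list with 7 of 9 genes. Markers of meninges were mostly dim, with 8 of 10 genes averaging below 4, among them the collagens Col1a1 and Col3a1. Most microglia markers were higher in both aged groups. In aged impaired animals 2 of 8 astrocyte markers were higher and 3 of 6 CA3 neuron markers lower, as given with their sums further on.

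Of the 15 probe sets, 10, from 9 genes, reached a log2 value of 4 on 6 or more arrays and entered the limma fit over 14647 probe sets. S100a6, measured by 1 dim probe set, did not, nor did a second Anxa2 probe set, which lay at 2.19 on every array, or 3 dim Anxa3 probe sets. Since the genes were chosen with the results in view, their differences are given as descriptions. A probe set was called at a Benjamini-Hochberg adjusted p of at most 0.05, and the brightest probe set stood for its gene. Between aged impaired and young animals, 3 of the 9 genes were called, all higher, namely S100a4, Anxa3 and Anxa5, against 3.8% of all 8726 genes called higher. Between aged unimpaired and young animals, Anxa3 and Anxa5 were called, both higher, against 1.43% of all genes called higher. The median log2 difference of the 9 genes was 0.21 for aged impaired against young, beside -0.02 over all genes, and 0.11 for aged unimpaired against young, beside -0.002. Nothing about the 10 genes is read from these counts, and the 2 comparisons share their young animals.

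**Figure D1:**
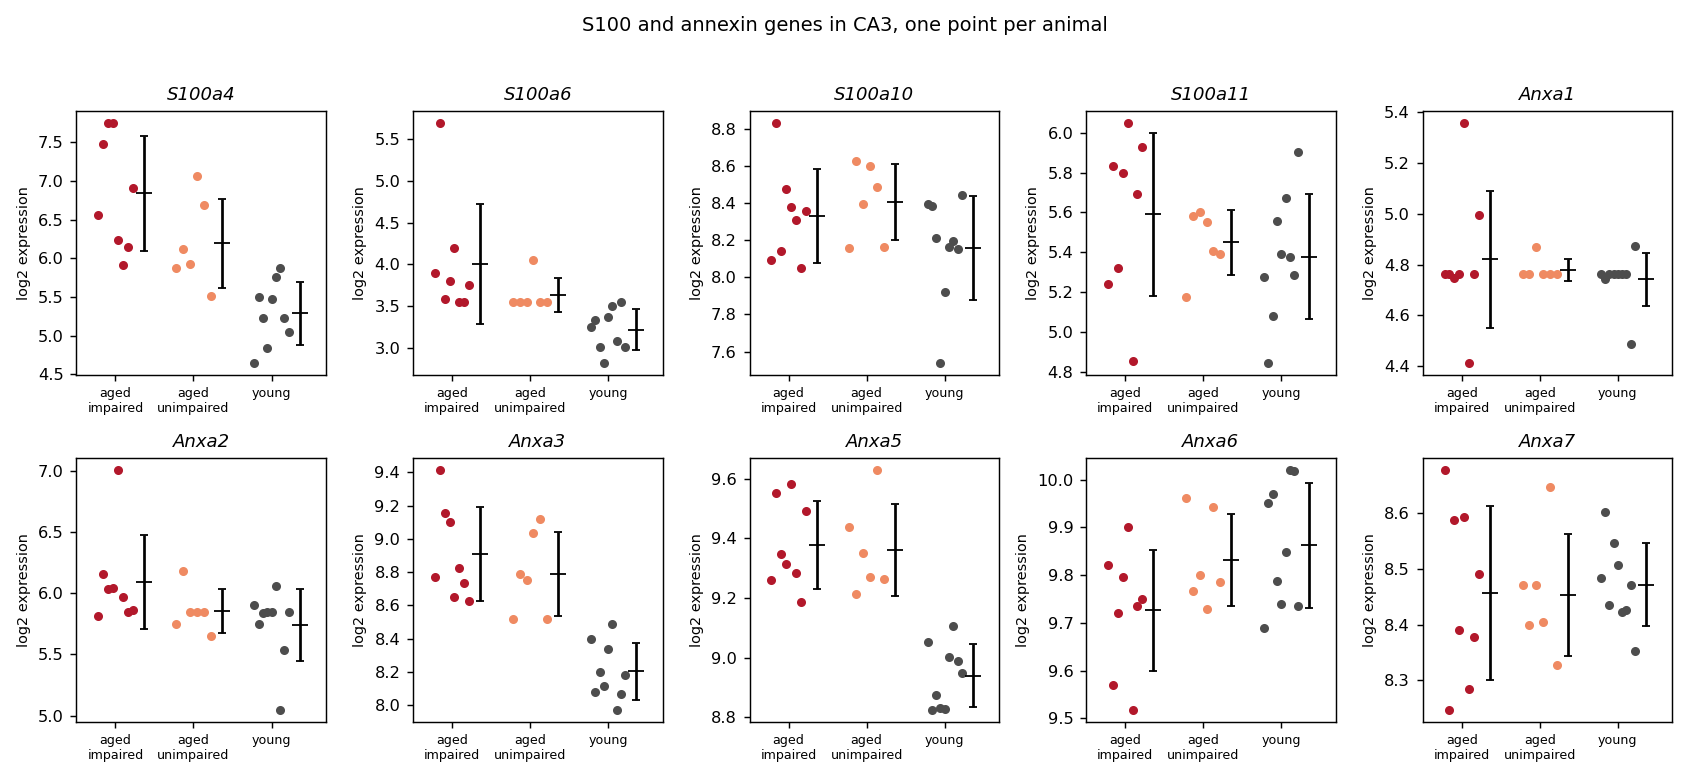
Log2 expression (y axis) of the S100 and annexin genes in each animal, with 1 panel per gene and aged impaired, aged unimpaired and young animals side by side. Points are animals and the bar beside them gives the mean ± SD. All 8 aged impaired animals lay above every young animal for S100a4, Anxa3 and Anxa5.

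Among the S100 genes, S100a4 differed most. S100a4, also called metastasin, binds the heavy chain of non-muscle myosin and has been described in white matter astrocytes of the rat. Its log2 values ran from 5.91 to 7.75 with a median of 6.74 in aged impaired animals, from 5.51 to 7.06 with a median of 6.02 in aged unimpaired animals, and from 4.65 to 5.87 with a median of 5.23 in young animals. Every aged impaired animal and 4 of 6 aged unimpaired animals lay above the highest young animal. The means were 6.84 ± 0.74 (SD, n = 8) in aged impaired, 6.20 ± 0.58 (n = 6) in aged unimpaired and 5.29 ± 0.40 (n = 9) in young animals. The log2 difference from young was 1.55 ± 0.27 (SE) for aged impaired animals, which is 2.93-fold, and 0.91 ± 0.29 for aged unimpaired animals, which is 1.88-fold. The spread within the aged impaired group was wide. Replicates 2, 3 and 4 had 7.48, 7.75 and 7.75, and all the others lay within the aged unimpaired range.

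S100a6, or calcyclin, lies close to S100a4 in the rat genome and binds the ubiquitin ligase component Cacybp. Its log2 values ran from 3.55 to 5.70 with a median of 3.78 in aged impaired animals, from 3.55 to 4.06 with a median of 3.55 in aged unimpaired animals, and from 2.82 to 3.55 with a median of 3.25 in young animals. Aged impaired animals lay above every young animal by more than 0.01 in 6 of 8 cases, although the values were near the floor of the scale, with 8 of the 23 arrays within 0.01 of 3.55. The highest value, 5.70, belonged to aged impaired replicate 2. The difference in means from young was 0.79 for aged impaired and 0.42 for aged unimpaired animals, and no fold is given at this level.

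S100a10, also called p11, has lost the ability to bind calcium and works as the partner of annexin A2, carrying membrane proteins such as serotonin receptors to the cell surface. It averaged 8.33 ± 0.25 (SD, n = 8) in aged impaired, 8.41 ± 0.21 (n = 6) in aged unimpaired and 8.16 ± 0.28 (n = 9) in young animals. The groups overlapped, and its log2 difference from young was 0.17 ± 0.12 (SE) in aged impaired and 0.25 ± 0.13 in aged unimpaired animals. S100a11, or calgizzarin, averaged 5.59 ± 0.41, 5.45 ± 0.16 and 5.38 ± 0.31 in aged impaired, aged unimpaired and young animals, with overlapping groups and a difference of 0.21 ± 0.15 for aged impaired against young.

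Promoter sequences are shown for the called genes, S100a4, Anxa3 and Anxa5, and for S100a6 as the neighbour of S100a4. Each covers 250 bases before and 50 after the RefSeq start in build GRCr8, read 5′ to 3′ on the strand of the gene. Capitals mark matches, on either strand, to a TATA box (TATAAA), a GC box (GGGCGG) or an AP-1 site (TGANTCA). S100a4 lies at chr2:178388279-178388578 on the plus strand, S100a6 at chr2:178398287-178398586 on the plus strand, Anxa3 at chr14:13085548-13085847 on the minus strand and Anxa5 at chr2:121272647-121272946 on the minus strand.
S100a4 promoter: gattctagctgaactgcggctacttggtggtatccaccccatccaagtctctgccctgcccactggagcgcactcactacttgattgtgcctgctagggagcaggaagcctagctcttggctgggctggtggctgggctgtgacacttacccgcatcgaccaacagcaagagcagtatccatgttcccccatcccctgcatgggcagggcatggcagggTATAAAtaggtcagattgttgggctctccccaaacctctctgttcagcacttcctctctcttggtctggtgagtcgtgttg
S100a6 promoter: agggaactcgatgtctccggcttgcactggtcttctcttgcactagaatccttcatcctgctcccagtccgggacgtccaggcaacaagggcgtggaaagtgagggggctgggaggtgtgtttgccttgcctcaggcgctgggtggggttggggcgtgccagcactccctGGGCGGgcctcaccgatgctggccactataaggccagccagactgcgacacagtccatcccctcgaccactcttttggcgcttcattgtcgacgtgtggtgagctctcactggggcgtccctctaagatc
Anxa3 promoter: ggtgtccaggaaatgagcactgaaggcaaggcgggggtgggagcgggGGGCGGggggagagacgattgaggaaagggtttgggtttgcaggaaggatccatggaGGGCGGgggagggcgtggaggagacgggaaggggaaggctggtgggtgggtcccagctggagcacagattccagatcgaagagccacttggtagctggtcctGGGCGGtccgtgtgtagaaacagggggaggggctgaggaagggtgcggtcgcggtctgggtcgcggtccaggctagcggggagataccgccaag
Anxa5 promoter: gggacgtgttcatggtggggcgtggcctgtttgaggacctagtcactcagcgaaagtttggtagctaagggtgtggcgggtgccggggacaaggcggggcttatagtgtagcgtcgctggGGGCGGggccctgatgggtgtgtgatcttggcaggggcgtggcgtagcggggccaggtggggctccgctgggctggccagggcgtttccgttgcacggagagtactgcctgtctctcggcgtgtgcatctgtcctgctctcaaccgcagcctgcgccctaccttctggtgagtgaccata

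In the motifs searched, S100a4 held 1 TATA box and no GC box, Anxa3 held 3 GC boxes and no TATA box, and Anxa5 and S100a6 held 1 GC box each. RefSeq entries were given for 8 of the 10 genes, which leaves S100a10 and Anxa6 named only. Of these 8, 3 held a TATA box, as did 14.2% of 33469 rat promoters of this length, 6 held a GC box (33.1% of all promoters), and 1, Anxa2, held an AP-1 site (7.33%).

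Among the annexins, Anxa3 and Anxa5 were higher in both aged groups by nearly the same amount. Anxa3, the annexin of microglia and neutrophils, ran from 8.63 to 9.41 with a median of 8.80 in aged impaired animals, from 8.52 to 9.12 with a median of 8.77 in aged unimpaired animals, and from 7.97 to 8.49 with a median of 8.18 in young animals. No aged animal of either kind overlapped the young. The means were 8.91 ± 0.28 (SD, n = 8), 8.79 ± 0.25 (n = 6) and 8.20 ± 0.17 (n = 9) in aged impaired, aged unimpaired and young animals, giving log2 differences from young of 0.71 ± 0.11 (SE, 1.63-fold) and 0.59 ± 0.12 (1.50-fold). These values come from the 1 bright Anxa3 probe set; the 3 dim ones had group means between 2.23 and 3.28.

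Anxa5 binds phosphatidylserine and is the protein used in the laboratory to stain dying cells. Its log2 values ran from 9.19 to 9.58 with a median of 9.33 in aged impaired animals, from 9.21 to 9.63 with a median of 9.31 in aged unimpaired animals, and from 8.82 to 9.11 with a median of 8.95 in young animals. The aged ranges coincided and neither touched the young range. The log2 differences from young were 0.44 ± 0.06 (SE, 1.35-fold) and 0.42 ± 0.07 (1.34-fold) for aged impaired and aged unimpaired animals. Genes with no overlap and higher values than young made up 0.699% of all genes in aged impaired animals and 0.722% in aged unimpaired animals.

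The remaining annexins were not called. Anxa2, a membrane and actin linker that captures plasminogen activator together with S100a10, averaged 6.09 ± 0.39 (SD, n = 8) in aged impaired, 5.85 ± 0.18 (n = 6) in aged unimpaired and 5.74 ± 0.30 (n = 9) in young animals. Its difference of 0.35 ± 0.14 (SE) between aged impaired and young animals owed much to 1 animal: replicate 5 stood at 7.01, and the difference was 0.22 without it. Anxa1, a glucocorticoid-induced mediator that limits inflammation, was dim and lay within 0.01 of 4.76 on 15 of the 23 arrays, so that the group means of 4.82, 4.78 and 4.74 in aged impaired, aged unimpaired and young animals mostly repeat 1 value.

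Anxa6, an annexin with a duplicated core that binds membranes and cholesterol-rich domains, averaged 9.73 ± 0.13 (SD, n = 8) in aged impaired, 9.83 ± 0.10 (n = 6) in aged unimpaired and 9.86 ± 0.13 (n = 9) in young animals, a log2 difference of -0.14 ± 0.06 (SE) for aged impaired against young. The ranges overlapped. Anxa7, or synexin, which fuses secretory granules in the test tube, had means of 8.46, 8.45 and 8.47 in aged impaired, aged unimpaired and young animals. Its second tested probe set gave 6.78, 6.91 and 6.88.

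**Figure D2:**
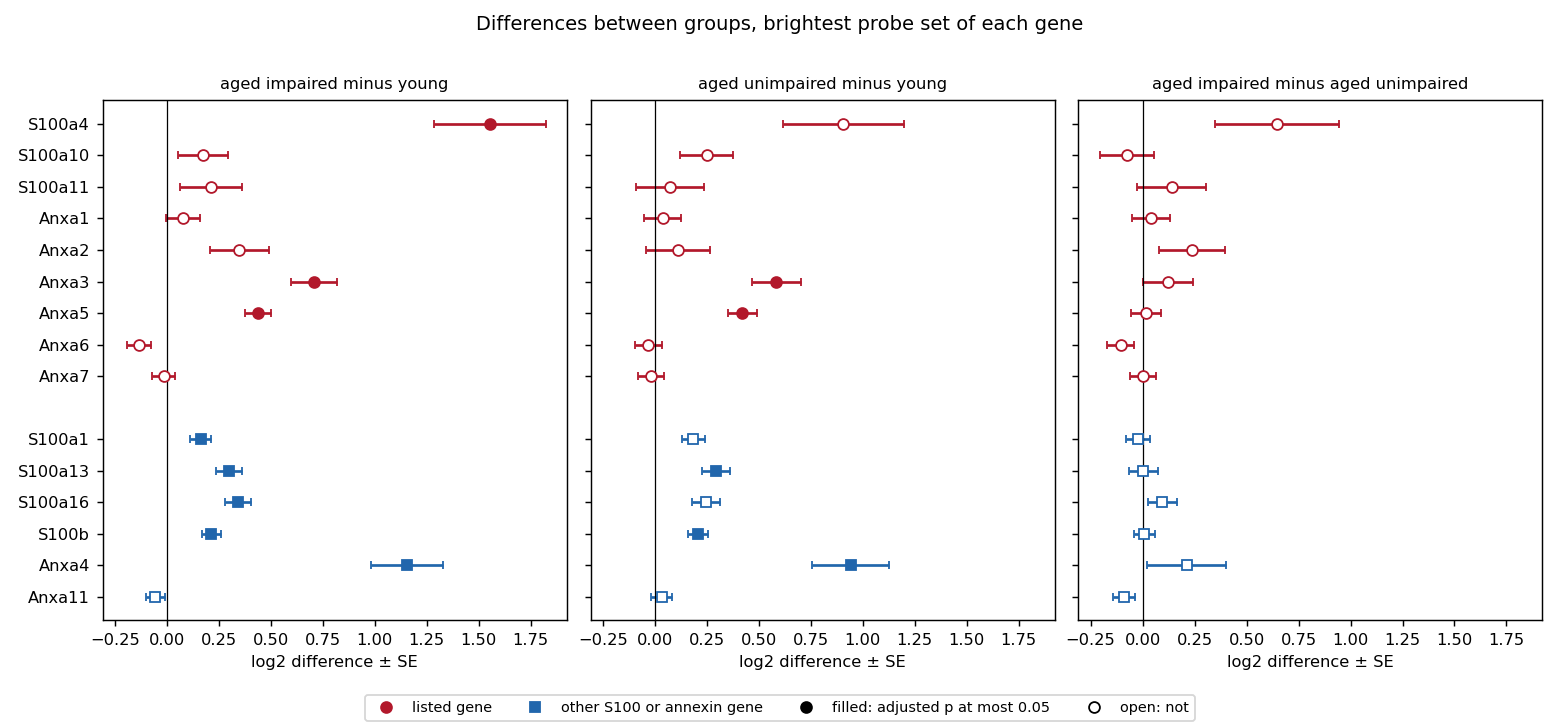
Log2 difference (x axis) for each S100 and annexin gene with a tested probe set (rows), with bars of ± SE. The panels show aged impaired minus young, aged unimpaired minus young and aged impaired minus aged unimpaired. Filled symbols had an adjusted p of at most 0.05. S100a4 differed from young by 1.55 in aged impaired and 0.91 in aged unimpaired animals, while Anxa3 and Anxa5 had nearly the same difference from young in both.

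Aged impaired and aged unimpaired animals were then compared directly, which asks whether any of these genes differed with learning at the same age. None of the 9 genes was called by limma, against 0.435% of all genes, and 1 of 9, S100a4, had an unadjusted p under 0.05, as did 11.5% of all genes. S100a4 was 0.65 ± 0.30 higher (log2 difference ± SE, 95% interval 0.03 to 1.26, adjusted p = 0.306), with 3 of 8 aged impaired animals above every aged unimpaired animal. The difference was 0.12 ± 0.12 for Anxa3 (interval -0.13 to 0.37) and 0.02 ± 0.07 for Anxa5 (interval -0.13 to 0.16). A doubling thus lay outside the interval for Anxa3 and Anxa5 and inside it for S100a4.

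The rest of the family was measured by 14 further genes on the array, 17 probe sets, of which 6 genes could be tested. They are the part of the family left when the 10 genes were chosen, so they too are not independent of earlier results. In aged impaired against young animals, 5 of the 6 rose and 0 fell, beside 3.8% of all genes called higher, with a median log2 difference of 0.26. In aged unimpaired against young animals 3 of the 6 rose, beside 1.43% called higher. In aged impaired against aged unimpaired animals 0 of 6 were called by limma, and 0 of 6 had an unadjusted p under 0.05.

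Anxa4, an annexin of epithelia and secretory cells, had the largest change of the 6. It ran from 5.50 to 6.36 with a median of 5.97 in aged impaired animals, from 5.46 to 6.25 with a median of 5.63 in aged unimpaired animals, and from 4.18 to 5.42 with a median of 4.79 in young animals. No aged animal overlapped the young, although the lowest aged value and the highest young one nearly met. It rose by 1.16 ± 0.17 on the log2 scale (SE, 2.23-fold, limma adjusted p = 0.000404) in aged impaired and by 0.94 ± 0.19 (1.92-fold, limma adjusted p = 0.00877) in aged unimpaired animals. A second Anxa4 probe set was dim, with group means between 2.55 and 2.75.

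S100b, the S100 protein of astrocytes, rose by 0.21 ± 0.04 (SE, 1.16-fold, limma adjusted p = 0.00512) in aged impaired animals, with 8 of 8 above every young animal, and by 0.21 ± 0.05 (limma adjusted p = 0.0263) in aged unimpaired animals, with 6 of 6. S100a16 rose by 0.34 ± 0.06 (1.27-fold, limma adjusted p = 0.00223, 8 of 8) in aged impaired animals, and had a difference of 0.25 ± 0.07 (limma adjusted p = 0.0648) in aged unimpaired animals. S100a13, which takes part in the release of fibroblast growth factor 1, rose by 0.30 ± 0.06 (limma adjusted p = 0.00541, 7 of 8) and by 0.29 ± 0.07 (limma adjusted p = 0.0225, 5 of 6) in these groups. The aged unimpaired calls of S100a13 and S100b each held in 29 of 33 alternative fits. Without aged unimpaired replicate 6 their limma adjusted p was 0.0717 and 0.0806. Without replicate 2 that of S100a13 was 0.0538, and without replicate 4 that of S100b was 0.056. With no filter the limma adjusted p of S100a13 and S100b was 0.0592 and 0.0526, and with the replicate number as a block 0.0803 and 0.11. S100a16 was in turn called in aged unimpaired animals in 5 of 33 alternative fits. These were without aged impaired replicate 2 or aged unimpaired replicate 1, at limma adjusted p of 0.0457 and 0.0312. The others were with array medians centred, quantile normalization and array weights, at limma adjusted p of 0.0328, 0.0398 and 0.0371.

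S100a1, best known as a regulator of calcium release in heart muscle, rose by 0.16 ± 0.05 (SE, limma adjusted p = 0.0451) in aged impaired animals, with 1 of 8 above every young animal. In aged unimpaired animals its difference from young was 0.18 ± 0.06 (limma adjusted p = 0.0843). The S100a1 call in aged impaired animals held in 12 of 33 alternative fits. Anxa11 differed by -0.05 ± 0.05 (limma adjusted p = 0.475). The leukocyte proteins S100a8 and S100a9, which are abundant in neutrophils, were dim throughout: S100a8 stood at 2.19 on all arrays and S100a9 at no more than 2.21.

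**Figure D3:**
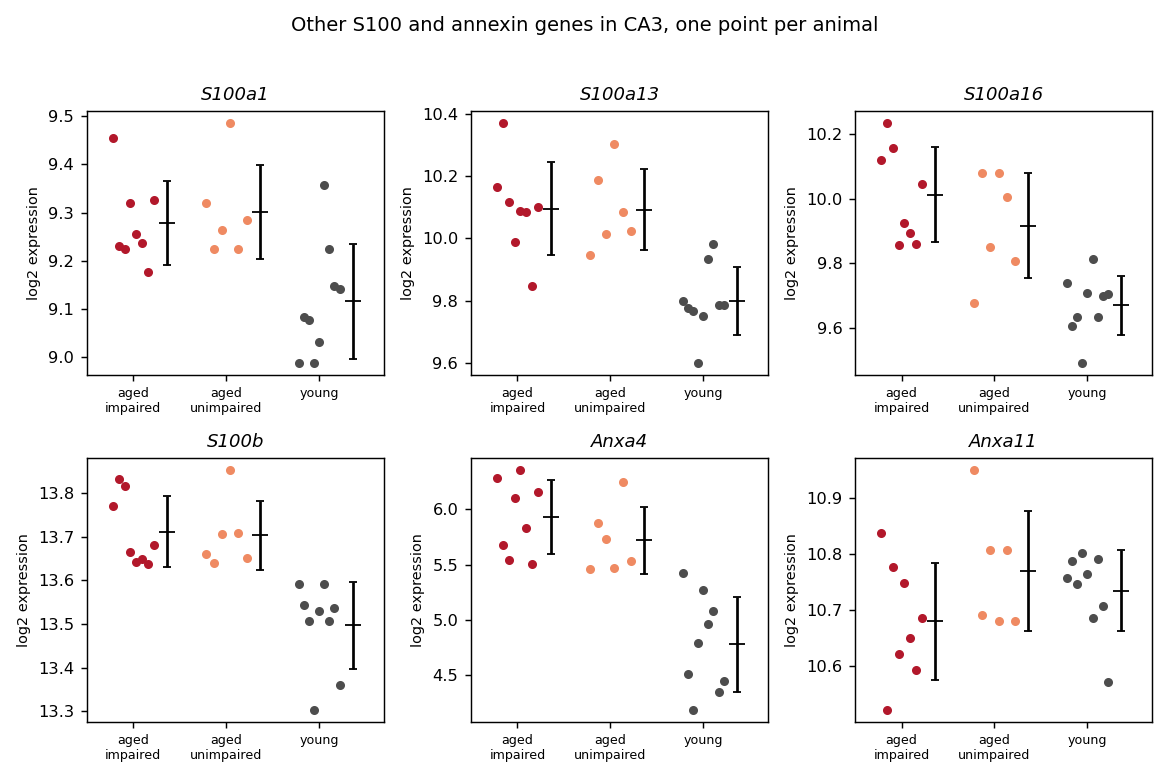
Log2 expression (y axis) of the 6 other S100 and annexin genes tested, with 1 panel per gene, 1 point per animal and the mean ± SD beside each group. All 8 aged impaired animals lay above every young animal for S100a16, S100b and Anxa4, and the groups overlapped for Anxa11.

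Most rat S100 genes sit in a row on chromosome 2. In the GRCr8 gene table, the gene S100z, which was not analysed here, comes first on that chromosome, and the order of the S100 names after it is S100a1, S100a13, S100a14, S100a16, S100a3, S100a4, S100a5, S100a6, S100a7a, S100a8 and S100a9, followed on the same chromosome by S100a11 and S100a10, with S100b on chromosome 20 and S100g on chromosome X. The 4 genes tested from the first row, S100a1, S100a13, S100a16 and S100a4, were all called higher in aged impaired animals than in young, beside 3.8% of all genes, although the S100a1 call held in 12 of 33 alternative fits as given above. Their differences ran from 0.16 to 1.55 without following the order, and S100a5 and S100a8, in the same row, lay at the floor.

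Lists of proteins that work with these families were read beside the 10.2% of all genes called in either direction between aged impaired and young animals, and nothing particular to a list is read from its count. Of 5 tested partners of the annexin A2 and S100a10 complex, 1 rose in aged impaired against young animals: Plat, tissue plasminogen activator, by 0.23 ± 0.07 (log2, SE, 1.18-fold, limma adjusted p = 0.0475), with 1 of 8 above every young animal. Plat differed by nearly the same amount, 0.23 ± 0.08 (limma adjusted p = 0.145), in aged unimpaired against young animals. Its call in aged impaired animals ended in most of the fits that left out 1 animal, as in the one without aged impaired replicate 5. Of 7 tested S100 targets, 1 fell, the HSP70 and HSP90 co-chaperone Stip1, with a log2 difference of -0.19 ± 0.04 (limma adjusted p = 0.00919) and 6 of 8 animals below every young animal. Myh9, the myosin heavy chain bound by S100a4, differed by 0.09 ± 0.06 (limma adjusted p = 0.33) and Cacybp, bound by S100a6, by -0.12 ± 0.06 (limma adjusted p = 0.215). None of 2 tested genes on the receptor, phospholipase and glucocorticoid side and none of 8 tested genes of membrane repair and annexin binding was called by limma, with 0 of 2 and 1 of 8 at an unadjusted p under 0.05.

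Cell type markers were read beside these values. Of all genes, 3.8% were called higher in aged impaired than in young animals, and 10.2% were called in either direction. Between aged unimpaired and young animals 1.43% were called higher. Microglia markers rose in both aged groups, 5 of 7 tested in each, and their summed linear level ran from 2326 to 3620 in aged impaired, from 2246 to 2972 in aged unimpaired and from 1516 to 1915 in young animals. Of 8 astrocyte markers, Gfap and Mlc1 rose in aged impaired animals, with a summed level of 25260 to 34080 in aged impaired, 25980 to 32220 in aged unimpaired and 21780 to 26760 in young animals. The median log2 difference of these 8 markers between aged impaired and young animals was 0.04, with 5 of 8 positive. Of 6 CA3 neuron markers, 3 fell in aged impaired animals, with sums of 10830 to 15800, 13300 to 16000 and 15030 to 18180 in aged impaired, aged unimpaired and young animals. None of 5 oligodendrocyte markers was called by limma in aged impaired animals (1 of 5 at an unadjusted p under 0.05), and the sums overlapped at 32000 to 35950, 30830 to 34680 and 31090 to 35130 in aged impaired, aged unimpaired and young animals. The sums for meninges overlapped as well, at 270.8 to 1029, 335.4 to 472.6 and 340.6 to 968.2. None of 5 endothelial and pericyte, 1 choroid plexus and 2 T cell markers tested was called by limma in aged impaired animals, with 0, 0 and 1 at an unadjusted p under 0.05, while Lyz2, a lysozyme of monocytes and microglia, rose by 0.75 ± 0.13 (log2, SE, limma adjusted p = 0.00155). The part of cell makeup in the age differences of the S100 and annexin genes was not tested.

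Within groups, which the age differences do not enter, 2 of the genes followed a marker list by Pearson's r. With group means removed, 63 relations between 9 genes and 7 lists were computed over the 23 animals. Anxa3 followed the mean of the 7 microglia markers with Pearson r = 0.86 and Spearman rho = 0.86 (permutation p = 1e-05, the smallest that 100000 resamples can give, adjusted p = 0.00063 for both), and r was 0.81 without the 2 animals farthest from the median of the markers. S100a4 followed the 5 oligodendrocyte markers with r = 0.73 and rho = 0.72 (permutation p = 0.00034 for both, adjusted p = 0.0107), and r was 0.71 without the 2 farthest animals. Anxa3 also had r of -0.59 with CA3 neuron markers (permutation adjusted p = 0.0806) and 0.57 with astrocyte markers (permutation adjusted p = 0.0897). These became -0.42 and 0.33 without the 2 farthest animals. S100a4 had r of 0.46 with microglia markers (permutation adjusted p = 0.242) and 0.51 with astrocyte markers (permutation adjusted p = 0.18). Single genes of the astrocyte list came closer, with r of 0.88 for Gfap and 0.83 for Aqp4. These were found by ranking all tested genes, as given below, so S100a4 is not assigned to 1 cell type here.

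Anxa5 had r of 0.08 with microglia, 0.20 with astrocyte and 0.04 with CA3 neuron markers. Its highest values were 0.39 with endothelial and pericyte (permutation adjusted p = 0.305), 0.33 with oligodendrocyte and 0.32 with meninges markers. This order changed without the 2 farthest animals, where r was 0.47 with CA3 neuron and 0.20 with endothelial and pericyte markers. It was then 0.30 with oligodendrocyte, 0.05 with meninges and -0.37 with CA1 neuron markers. Anxa6 had r of 0.62 (permutation p = 0.00307, adjusted p = 0.0559) and rho of 0.66 (permutation p = 0.00163, adjusted p = 0.0342) with CA3 neuron markers, so it passed by rank only. S100a10 had r of 0.61 with astrocyte markers (permutation adjusted p = 0.0559), which fell to 0.44 without the 2 farthest animals. It had the same r of 0.61 with CA1 neuron markers (permutation adjusted p = 0.0806), which fell to 0.22. With endothelial and pericyte markers its r was 0.51 (permutation adjusted p = 0.13), and 0.525 without the 2 farthest animals. The differences between these correlations were not tested.

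**Figure D4:**
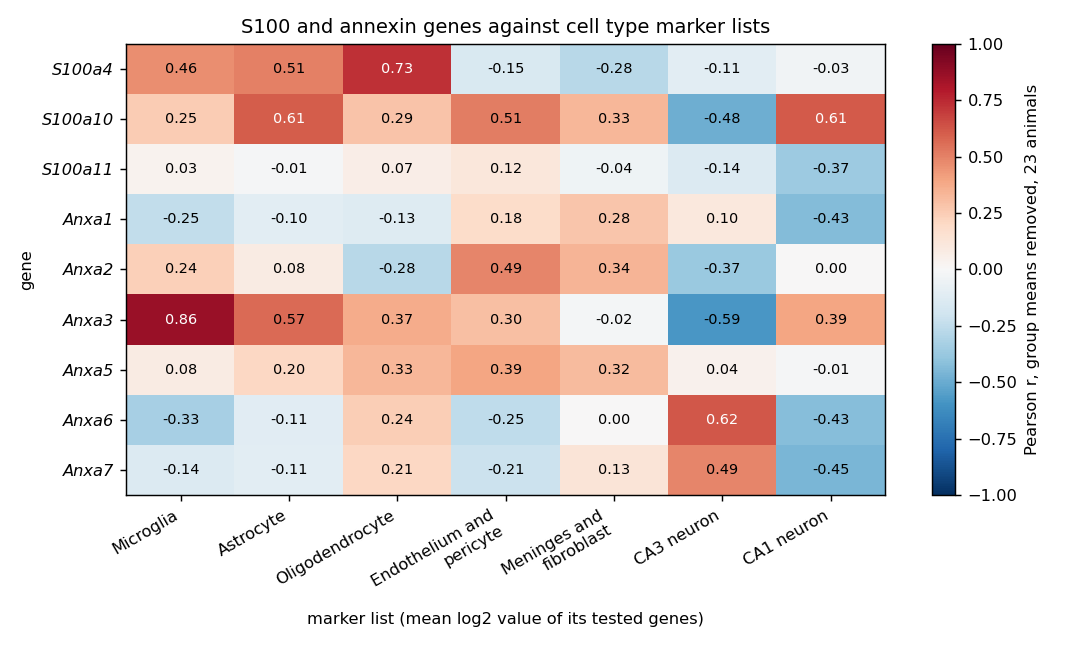
Pearson r over the 23 animals, with group means removed, between each S100 or annexin gene (rows) and the mean log2 value of each cell type's tested markers (columns), on a colour scale from -1 to 1. The strongest cells are Anxa3 with microglia, 0.86, and S100a4 with oligodendrocytes, 0.73.

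**Figure D5:**
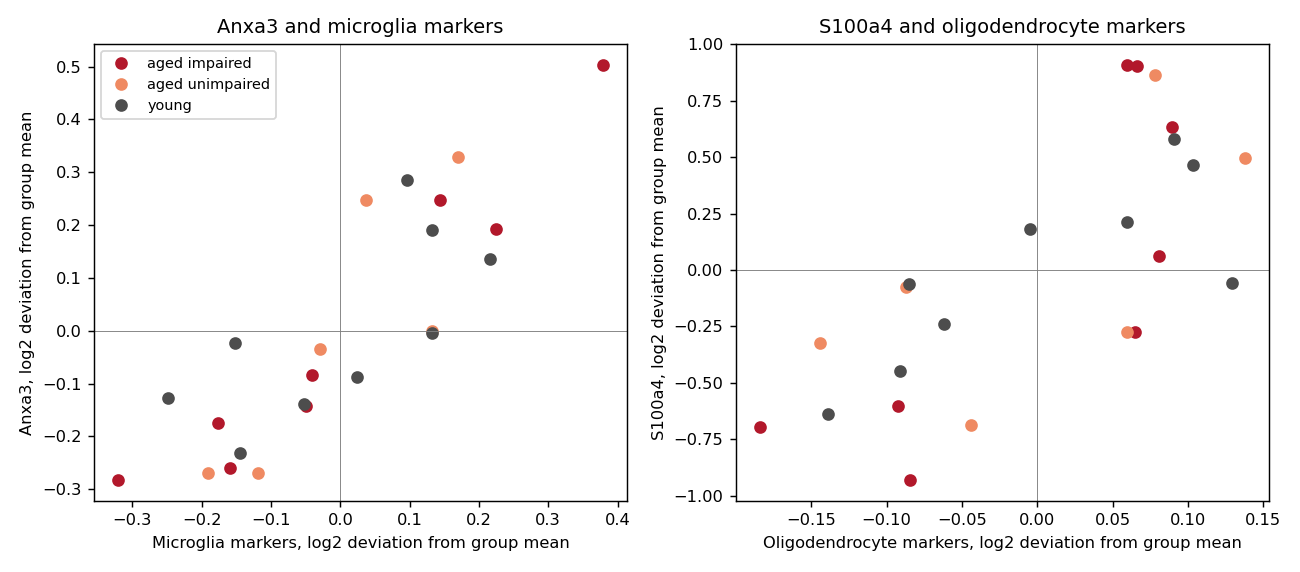
Each animal's deviation from its group mean in log2 units, for Anxa3 against the microglia markers and for S100a4 against the oligodendrocyte markers, coloured by group. The points rise together, with r of 0.86 and 0.73.

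The protein partners did not all move together at the RNA level. Over the 23 animals with group means removed, Anxa1 and S100a11 had r = 0.65 (permutation p = 0.00623, adjusted over 3 pairs 0.0187) and rho = 0.51 (permutation adjusted p = 0.053), but r fell to 0.41 without 2 animals, and most Anxa1 values repeat 1 level. Anxa2 and S100a10 had r = 0.21 (permutation adjusted p = 0.569) and rho = 0.44 (permutation adjusted p = 0.053), and r was 0.35 without 2 animals. Anxa6 and S100a11 had r = -0.05 (permutation adjusted p = 0.848), which became -0.50 without 2 animals. Over all 36 pairs of the 9 genes the median r was 0.17, with 4 pairs above 0.5 and a range from -0.42 to 0.65.

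The tested genes whose deviations were most like those of each gene, out of all 8726 and ranked by the same r over 23 arrays, are given as a description. For S100a4 they were Gfap, the astrocyte filament protein, at 0.88, Cnn3, an actin-binding calponin, at 0.85 and Aqp4, the astrocyte water channel, at 0.83. For Anxa3 they were Npc2, a lysosomal cholesterol carrier, at 0.93, Tmem176b at 0.90 and Csf1r, the receptor microglia need to survive, at 0.89. For S100a10 they were Myl12a, a myosin light chain, and Id3, an inhibitor of DNA binding, both at 0.76, and Nbl1 at 0.73. For S100a11 they were Zfpm2 at 0.83, Phf6 at 0.81 and Klhdc7a at 0.81. For Anxa1, whose values mostly repeat, they were Ccdc69 at 0.86, Slc13a3 at 0.80 and Zfp628 at 0.79. For Anxa2 they were Srgn, a proteoglycan of blood cell granules, and Fxyd5, both at 0.81, and Utp23 at 0.79. Anxa5 came closest to Usp25 at 0.74, Timmdc1 at 0.72 and Aebp1 at 0.71. Anxa6 came closest to Napb, a protein of synaptic membrane fusion, at 0.80, and to Mas1 and Pgk1, both at 0.75. Anxa7 came closest to Anxa11 at 0.77, Atp6v1b2, a subunit of the vacuolar proton pump, at 0.75 and Syn2, a synaptic vesicle protein, at 0.74.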

How the data were processed

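RNA from microdissected CA3 of 23 rats was hybridised to 1-colour arrays, per the labels' protocols. The authors deposited log2 values from GCRMA, per the submitters' processing notes, and its version is not given in the sources used here. GCRMA collapses dim probe sets onto repeated values: 1942 of 14647 tested probe sets (13.3%) had at least 12 arrays within 0.01 of 1 value. Arrays give no read depth, and their number limits the precision. The 57 control rows were left out. Of 31042 probe sets, 20826 had 1 gene in the platform annotation, 436 several and 9780 none.

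Group means were estimated with limma 3.58.1 (R 4.3.3) from the 23 arrays together, with 20 residual degrees of freedom, and two-sided moderated tests were adjusted by Benjamini-Hochberg over the 14647 probe sets that reached a log2 value of 4 on 6 or more arrays. The fits with another filter, scaling, weights, replicate block or covariate, and without each animal, are in the closing section. The replicate numbers did not pair animals: the correlation of 20 same-number pairs had a median of -0.0113, with 2 above 0.1. Correlations used deviations from group means and two-sided permutation tests.

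The 10 genes and all lists were chosen with earlier results of these data known, and which values chose the genes is not recorded. All 10 are named, with the tested members of the other family genes and the listed partner genes that were called or bind a named S100 protein, and the 3 most correlated genes of each. Promoters are from RefSeq (GRCr8), and its gene table gave the order of genes.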

Additional observations from a re-analysis of the deposited data

Results flagged for a closer look

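A gap test for 1 outlying animal was run on the 30 groups of values of the 10 tested probe sets, at a level at which chance marks about 1 in 20. It marked 4. Anxa2 was 7.01 in aged impaired replicate 5, where the next highest animal had 6.16. Anxa7, at its second probe set, was 6.31 in aged impaired replicate 2, where the next lowest had 6.73. Anxa1 was 4.87 in aged unimpaired replicate 4, against 4.76 in the others of that group, and 4.49 in young replicate 8, where the next lowest had 4.74. The last 2 lie beside repeated values of a dim probe set.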

How the results depend on the processing

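The calls of S100a4, Anxa3 and Anxa5 in aged impaired against young animals held in all 33 alternative fits, with limma adjusted p of at most 0.0147, 0.00778 and 0.00928, and S100a4 was never called in aged impaired against aged unimpaired animals (adjusted p 0.128 to 0.668). With the replicate number as a block, the 2 called genes of aged unimpaired against young animals became 1, since Anxa3, at a difference of 0.59, had an adjusted p of 0.059. No result named here changed direction where it was called. The numbers of called probe sets moved more: the 1429 of aged impaired against young became 768 with no filter, 870 with the replicate block and 937 with a control row gap as a covariate (rows labelled GAPDH 5' and GAPDH M, whose names may not match their values, so that what the gap measures is unsure), and ran from 1017 (without aged impaired replicate 2) to 1808 (without aged impaired replicate 1) with 1 animal left out. Of these, 39.7% were higher, against 50% with array medians centred. The 302 of aged unimpaired against young became 126 with no filter, 672 with array weights and 86 with the block, and ran from 175 (without aged unimpaired replicate 4) to 382 (without aged unimpaired replicate 7). The 114 of aged impaired against aged unimpaired became 2 with no filter, 180 with quantile normalization and 222 with array weights, 0 with the 2 groups alone, with the block and with the covariate, and ran from 2 (without aged unimpaired replicate 4) to 447 (without aged unimpaired replicate 7). Of the other S100 and annexin genes, the 3 that rose in aged unimpaired animals became 1 with no filter, 1 with the block and 5 with array weights, and ran from 1 (without aged unimpaired replicate 6) to 4 (without aged impaired replicate 2), while the 5 in aged impaired animals ran from 4 to 5. Beyond the filters and the smaller fits, which change what is tested, the cause was not tested. GCRMA had already scaled the arrays, dim genes such as S100a6 and Anxa1 are compressed, and only 1 probe set stood for most genes.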
